A study of Mus musculus with 7 samples.

Results

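Insulin and insulin-like growth factors act on a cell through a short relay, and 9 genes of that relay were followed in β-cells of lean and diabetic mice. They were chosen by symbol and are the receptors Insr, Igf1r and Igf2r, the docking proteins Irs1 and Irs2, the phosphoinositide 3-kinase subunits Pik3r1 and Pik3ca, and the kinases Akt1 and Akt2. All 9 were found among the 35013 gene symbols of the table, and all 9 passed the filter on low counts in each comparison. The libraries were made from sorted pancreatic β-cells of 7 mice, 1 library per mouse. The 2 KO_db/db mice were homozygous for floxed Aldh1a3 (fl/fl) and for the Lepr db mutation (db/db), the 2 db/db mice were Aldh1a3 fl/+ and Lepr db/db, and the 3 db/+ mice were Aldh1a3 fl/+ and Lepr db/+. Mice of every group also carried RIP-Cre(Herr), a Cre driven by the rat insulin promoter, and 1 tdTomato reporter allele (tdT fl/+), so that the control groups were not free of the Cre or of a floxed allele. The db mutation inactivates the leptin receptor, which makes homozygotes obese and diabetic and leaves heterozygotes lean. As a general rule the study used adult mice of both sexes unless it stated otherwise, and mice were fasted before islets were taken for RNA sequencing. The sex and age of each sequenced mouse are not stated in the labels.

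In the textbook relay, bound insulin or IGF activates a receptor tyrosine kinase, which phosphorylates the IRS docking proteins. These recruit the PI3K regulatory and catalytic subunits to the membrane, and the lipid they make brings AKT to its activating kinases. AKT in turn restrains FOXO transcription factors and GSK3 and releases mTORC1, and in β-cells the IRS2 arm of this relay is known for supporting growth and survival of the cells that secrete insulin.

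Levels are given as CPM, counts divided by a library size that was adjusted by the TMM method of edgeR over the 7 libraries. Fold changes are on the log2 scale, the first group named over the second, with their standard error (SE), and a gene was called at an adjusted p under 0.05 in the quasi-likelihood test of edgeR, adjusted by the Benjamini-Hochberg method over all genes tested. Total counts ran from 27496645 to 35852785 per library. Each comparison shares libraries with the other two, so their results are not independent and are set side by side. In bulk RNA, fewer cells of a type and less RNA per cell cannot be told apart.

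Aldh1a3, the gene deleted in KO_db/db, stood at 4.97 and 7.89 CPM in the KO_db/db libraries, at 98.5 and 194 CPM in db/db, and at no more than 0.589 CPM in db/+. All 8 β-cell markers were present in every library, and summed to between 391143 and 438787 CPM in db/+, 200426 and 223630 CPM in db/db, and 224548 and 295683 CPM in KO_db/db. A list of 17 markers of pancreatic acinar cells, which secrete digestive enzymes, summed to 105282 CPM in KO_db/db mouse 1 and 8775 CPM in mouse 2, against 181 to 288 CPM in db/db and 79.7 to 213 CPM in db/+. Alpha-cell markers summed to between 2823 and 3203 CPM in db/db, 1384 and 1951 CPM in KO_db/db and 1195 and 1771 CPM in db/+. Delta-cell markers summed to between 381 and 2332 CPM in db/+, against 87.4 to 169 CPM in db/db and 520 to 653 CPM in KO_db/db. Macrophage markers reached at most 73.6 CPM, endothelial markers 51.4 CPM, stellate and fibroblast markers 4.18 CPM and lymphocyte markers 0.502 CPM, with Cd3g at 0 in all libraries. The part of these cells in the results was not tested.

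Irs2 was the member with the largest difference between diabetic and lean β-cells, with a mean of 66.3 CPM in db/db and 17.7 CPM in db/+, and it was similarly high in KO_db/db. Igf1r stood highest in the KO_db/db libraries, at 76.2 CPM on average against 38.6 CPM in db/db and 27.1 CPM in db/+. Akt1 and Akt2 were lower in db/db than in db/+ on the TMM scale. Insr, Igf2r and Pik3r1 were modestly higher in KO_db/db than in db/+, whereas Pik3ca was called in no comparison.

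By count, 3 of the 9 genes were called in db/db against db/+, Irs2 as higher and Akt1 and Akt2 as lower, whereas 37.8% of all genes tested were called there, 19.9% as higher and 18.0% as lower. Against db/+, KO_db/db had 5 of 9 called, all of them higher, namely Insr, Igf1r, Igf2r, Irs2 and Pik3r1, whereas 38.4% of all genes were called, 20.5% as higher and 17.9% as lower. Between KO_db/db and db/db, 0 of 9 were called by edgeR and 0.319% of all genes were, 0.126% as higher and 0.193% as lower. Igf1r was the only member there with an unadjusted p under 0.05 from edgeR, beside 20.9% of all genes. Though edgeR did not call it after adjustment, DESeq2 did, and DESeq2 called 6.99% of all genes there. The median log2 fold change of the 9 genes was 0.14, 0.37 and 0.30 in these comparisons, in the same order, and that of all genes was 0.0064, -0.0034 and -0.023. Libraries of db/db and db/+ did not overlap for 5 of the 9 genes, 3 higher in db/db and 2 lower, against 63.3% of all genes, 32.6% higher and 30.7% lower. Those of KO_db/db and db/+ did not overlap for 6 genes, all higher in KO_db/db, against 64.1% of all genes, 31.7% higher and 32.5% lower. For 5 genes, all higher in KO_db/db, its libraries did not overlap those of db/db, against 57.5% of all genes, 28.4% higher and 29.1% lower.

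The counts depended on single libraries, as did those over all genes. Over all genes, db/db against db/+ had 3331 of 13310 called without db/+ mouse 1 and 3368 of 13225 without db/+ mouse 2, in place of 5069 of 13406. KO_db/db against db/+ had 3434 of 13087 without db/+ mouse 1, in place of 5081 of 13228. Without db/+ mouse 1 or db/+ mouse 2, only 1 of 9 genes was called in db/db against db/+, namely Irs2. The number in KO_db/db against db/+ was 3 without KO_db/db mouse 1, 3 without KO_db/db mouse 2 and 2 without db/+ mouse 1, and the 2 that stayed in all of these were Igf1r and Irs2.

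**Figure D1:**
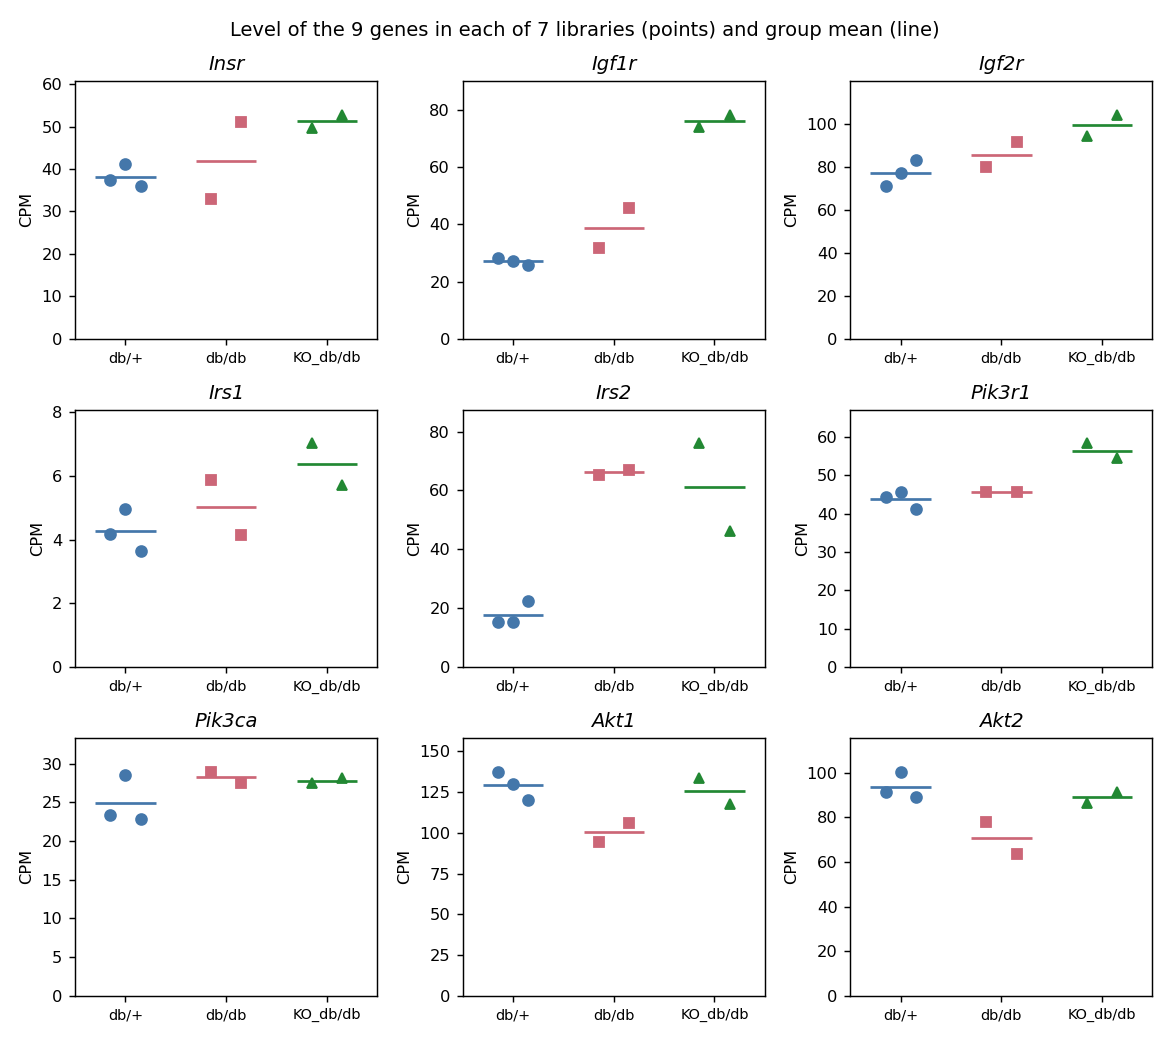
Level of each of the 9 genes in CPM, from 0, in the 3 db/+, 2 db/db and 2 KO_db/db libraries (points), with the group mean as a line. Irs2 sits between 46.2 and 76.1 CPM in the db/db and KO_db/db libraries and between 15.3 and 22.3 CPM in db/+, and Igf1r sits at 73.9 and 78.4 CPM in KO_db/db, above all other libraries.

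Among the receptors, Igf1r encodes the receptor tyrosine kinase that binds IGF1 and IGF2 (ENSMUSG00000005533.10, chr7:67952827-68233668 of GRCm38, plus strand). Its level was 73.9 and 78.4 CPM in KO_db/db, 31.6 and 45.6 CPM in db/db, and 28.3, 27.3 and 25.7 CPM in db/+. The 3 groups did not overlap, with the db/+ libraries close together at the bottom and the db/db libraries apart from each other in between. Igf1r rose in KO_db/db against db/+ by a log2 fold change of 1.498 (SE 0.09, adjusted p = 0.000605 from edgeR). In db/db against db/+ the fold change was 0.50 (SE 0.17, adjusted p = 0.0562 from edgeR). The latter depended on the db/db mouse, at 0.74 (adjusted p = 0.00695 from edgeR) without db/db mouse 1 and 0.21 (adjusted p = 0.255 from edgeR) without db/db mouse 2.

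For Igf1r in KO_db/db against db/db the fold change was 0.98 (SE 0.21), and edgeR gave an adjusted p = 0.113. Some treatments of the same counts gave nearly the same fold change with an adjusted p of 0.000947 with DESeq2, 0.00207 with edgeR without the filter on low counts and 0.0249 with all 7 libraries in one edgeR fit. These treatments also raised the calls over all genes, from 43 to 1371, 1570 and 818. It was not called by edgeR with RLE scaling, the mouse number as a block or acinar and Reg genes removed (adjusted p = 0.109, 0.160 and 0.114). With libraries scaled by total counts alone the fold change was 0.73 (adjusted p = 0.120 from edgeR). Leaving out db/db mouse 2 gave 1.27 (adjusted p = 0.0465 from edgeR) and leaving out db/db mouse 1 gave 0.74 (adjusted p = 0.287 from edgeR). Of the KO_db/db libraries, the one with the lower acinar sum had the higher Igf1r level, and whether acinar RNA had a part in it was not tested.

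Insr encodes the insulin receptor, through which secreted insulin can act back on the β-cell (ENSMUSG00000005534.10, chr8:3122061-3279617, minus strand). It stood at 49.7 and 52.8 CPM in KO_db/db, 32.9 and 51.0 CPM in db/db, and 37.4, 41.1 and 35.9 CPM in db/+. The db/db libraries were the most divergent, one below and one above every db/+ library. Insr was higher in KO_db/db than in db/+ by a log2 fold change of 0.43 (SE 0.10, adjusted p = 0.0156 from edgeR), with no overlap between the libraries, and this call was lost without KO_db/db mouse 2, without db/+ mouse 1 (adjusted p = 0.0682 and 0.0563 from edgeR) and with all 7 libraries in one fit (adjusted p = 0.100 from edgeR). In db/db against db/+ it was 0.13 (SE 0.19, adjusted p = 0.633 from edgeR), turning to -0.23 without db/db mouse 2 and reaching 0.41 (adjusted p = 0.0489 from edgeR) without db/db mouse 1. In KO_db/db against db/db it was 0.29 (SE 0.23, adjusted p = 0.508 from edgeR), and 0.0045 without db/db mouse 1 and 0.63 without db/db mouse 2 (adjusted p = 0.993 and 0.115 from edgeR).

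Igf2r encodes the cation-independent mannose 6-phosphate receptor, which carries IGF2 to the lysosome and has no kinase domain (ENSMUSG00000023830.14, chr17:12682406-12769664, minus strand). Its level was 94.2 and 104 CPM in KO_db/db, 79.9 and 91.3 CPM in db/db, and 71.2, 77.0 and 83.2 CPM in db/+. The KO_db/db libraries lay above all others, and db/db overlapped db/+. Relative to db/+, Igf2r was higher in KO_db/db by 0.37 on the log2 scale (SE 0.10, adjusted p = 0.0283 from edgeR), a call that was lost when any one of KO_db/db mouse 1, KO_db/db mouse 2, db/+ mouse 1 or db/+ mouse 2 was left out (adjusted p between 0.0580 and 0.149 from edgeR). It did not pass the test in db/db against db/+ (0.14, SE 0.12, adjusted p = 0.392 from edgeR) or in KO_db/db against db/db (0.21, SE 0.14, adjusted p = 0.439 from edgeR).

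Per kilobase of the principal transcript, Igf1r stood below Insr in the lean β-cells and above it in KO_db/db. The ratio of Igf1r to Insr per length was 0.620, 0.544 and 0.588 in the db/+ libraries, 0.786 and 0.733 in db/db, and 1.22 and 1.22 in KO_db/db. These ratios, which do not depend on how libraries are scaled, did not overlap between any of the groups. They were chosen after the levels had been seen and were not tested.

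The docking proteins behaved unlike each other. Irs2 (ENSMUSG00000038894.7, chr8:10984681-11008458, minus strand) encodes the IRS protein best known in β-cells, whereas Irs1 (ENSMUSG00000055980.2, chr1:82233101-82291416, minus strand) encodes its relative that is prominent in muscle and fat. Both genes have 2 exons. The 250 bases before the RefSeq start of each are shown because these promoters hold the same pair of short motifs next to each other, although the genes differed in level and in response. Capitals mark GGGCGG (GC box), CACGTG (E-box) and TGTTTTG, the reverse complement of the insulin response core CAAAACA.
Irs2 (GRCm38.p6 chr8:11008930-11009179, minus strand): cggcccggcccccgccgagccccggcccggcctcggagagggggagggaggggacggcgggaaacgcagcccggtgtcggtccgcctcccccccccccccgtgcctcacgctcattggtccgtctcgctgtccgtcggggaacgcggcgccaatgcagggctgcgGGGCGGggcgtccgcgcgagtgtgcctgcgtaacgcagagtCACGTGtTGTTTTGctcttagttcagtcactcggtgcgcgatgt
Irs1 (GRCm38.p6 chr1:82291440-82291689, minus strand): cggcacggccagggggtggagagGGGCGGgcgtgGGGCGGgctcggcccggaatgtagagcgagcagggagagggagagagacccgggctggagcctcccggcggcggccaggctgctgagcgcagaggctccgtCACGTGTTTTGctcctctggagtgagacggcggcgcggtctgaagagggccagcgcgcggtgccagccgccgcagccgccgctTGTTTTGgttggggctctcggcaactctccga

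In Irs2 the E-box lay 44 to 39 bases and TGTTTTG 37 to 31 bases before the start. In Irs1 the E-box lay 115 to 110 bases before it and overlapped the first TGTTTTG at 111 to 105 bases. A further copy of the latter lay at 32 to 26 bases before the Irs1 start. The GC content of the windows was 72.8% in Irs2 and 72.4% in Irs1. On either strand, CAAAACA occurred in 5.56% of the 32851 RefSeq promoter windows of this length, CACGTG in 6.02%, GGGCGG in 32.7%, and both CAAAACA and CACGTG in 0.295%. RefSeq had promoter windows for 8 of the 9 genes, 13 in all, and both motifs were found together in Irs1 and Irs2 and in none of the other windows. The pair was picked from the motifs searched because these 2 promoters hold it, so its share is a description only and was not tested. The FOXO core GTAAACA was found in 1 of the 13 windows, upstream of Akt1, and in 3.17% of all windows. The cyclic AMP response element TGACGTCA was found in none of the 13 and in 1.55% of all. These are matches of letters in fixed windows, and the starts of Irs1 and Irs2 in RefSeq lie upstream of those in GENCODE.

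Irs2 stood at 76.1 and 46.2 CPM in KO_db/db, 65.4 and 67.1 CPM in db/db, and 15.3, 15.5 and 22.3 CPM in db/+. Every library of the obese mice was above every lean library, and the KO_db/db libraries enclosed the db/db ones. In db/db, at 66.3 ± 1.22 CPM (SD, n = 2), Irs2 rose over the 17.7 ± 3.98 CPM (SD, n = 3) of db/+ by a log2 fold change of 1.89 (SE 0.18, adjusted p = 0.000955 from edgeR). In KO_db/db, at 61.2 ± 21.1 CPM (SD, n = 2), it rose over db/+ by 1.79 (SE 0.25, adjusted p = 0.00297 from edgeR). Both calls held under each alternative that was run, with fold changes from 1.80 to 2.38 and from 1.39 to 2.09, respectively. Its fold change in KO_db/db over db/db was -0.12 (SE 0.25, adjusted p = 0.810 from edgeR), and it was 0.20 without KO_db/db mouse 2 and -0.52 without mouse 1. The higher Irs2 level in KO_db/db was in the library with the higher acinar sum, and whether the acinar RNA had a part in it was not tested.

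Irs1 was far lower, at 7.02 and 5.71 CPM in KO_db/db, 5.87 and 4.13 CPM in db/db, and 4.18, 4.96 and 3.64 CPM in db/+. Only KO_db/db and db/+ did not overlap. Its log2 fold change was 0.58 in KO_db/db against db/+ (SE 0.22, adjusted p = 0.0762 from edgeR), 0.22 in db/db against db/+ (SE 0.25, adjusted p = 0.531 from edgeR) and 0.34 in KO_db/db against db/db (SE 0.28, adjusted p = 0.516 from edgeR). With both strands searched, Irs1 shared 2792 of its 9114 stretches of 31 bases with Gm9747, another annotated gene. That is the length over which kallisto matches reads by default. Gm9747 was listed at 0 in all 7 libraries, and reads of one could have been given to the other. Per length, Irs2 exceeded Irs1 in each library, by a ratio of 4.52 to 8.87 in db/+, 16.1 and 23.5 in db/db, and 15.7 and 11.7 in KO_db/db.

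Pik3r1 and Pik3ca encode a regulatory and a catalytic subunit of class IA PI3K. Pik3r1 (ENSMUSG00000041417.15, chr13:101680563-101768217, minus strand) was at 58.4 and 54.5 CPM in KO_db/db, 45.8 and 45.7 CPM in db/db, and 44.4, 45.6 and 41.3 CPM in db/+. The db/db and db/+ libraries lay within a narrow band and both KO_db/db libraries lay above it. Its log2 fold change was 0.37 in KO_db/db against db/+ (SE 0.09, adjusted p = 0.0201 from edgeR), 0.30 in KO_db/db against db/db (SE 0.13, adjusted p = 0.258 from edgeR) and 0.05 in db/db against db/+ (SE 0.10, adjusted p = 0.718 from edgeR). The call against db/+ was lost without KO_db/db mouse 1 and without db/+ mouse 1 (adjusted p = 0.0939 and 0.0600 from edgeR). Acinar markers moved with Pik3r1, since both were highest in KO_db/db mouse 1 and next in mouse 2. The acinar sums were 105282 and 8775 CPM in these libraries, in which Pik3r1 stood at 58.4 and 54.5 CPM. Whether the acinar RNA had a part in the Pik3r1 level was not tested.

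Pik3ca (ENSMUSG00000027665.13, chr3:32397671-32468486, plus strand) varied least relative to its level, between 22.8 and 29.0 CPM over the 7 libraries. It was at 27.5 and 28.1 CPM in KO_db/db, 29.0 and 27.5 CPM in db/db, and 23.4, 28.5 and 22.8 CPM in db/+, so that all groups overlapped. The log2 fold changes were 0.17 in db/db against db/+ (SE 0.14, adjusted p = 0.356 from edgeR), 0.16 in KO_db/db against db/+ (SE 0.13, adjusted p = 0.343 from edgeR) and -0.03 in KO_db/db against db/db (SE 0.14, adjusted p = 0.924 from edgeR).

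AKT1 and AKT2 are the serine/threonine kinases at which the relay converges. Akt1 (ENSMUSG00000001729.14, chr12:112653821-112674884, minus strand) was at 133 and 117 CPM in KO_db/db, 94.5 and 106 CPM in db/db, and 138, 130 and 120 CPM in db/+. Akt2 (ENSMUSG00000004056.15, chr7:27591552-27640826, plus strand) was at 86.6 and 91.5 CPM in KO_db/db, 77.9 and 63.7 CPM in db/db, and 91.2, 101 and 89.4 CPM in db/+. For both genes the db/db libraries lay below all others, and KO_db/db overlapped db/+.

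Relative to db/+, Akt1 and Akt2 fell in db/db by 0.37 and 0.42 on the log2 scale (SE 0.12 and 0.12, adjusted p = 0.0418 and 0.0381 from edgeR). In KO_db/db against db/db the fold changes were 0.32 for Akt1 and 0.33 for Akt2 (SE 0.15 and 0.15, adjusted p = 0.288 and 0.285 from edgeR), and in KO_db/db against db/+ they were -0.04 and -0.07 (SE 0.11 and 0.09, adjusted p = 0.805 and 0.590 from edgeR). The falls in db/db are relative to the scaling. With libraries scaled by their total counts alone, a choice made after seeing the data, the fold changes in db/db against db/+ were 0.12 for Akt1 and 0.07 for Akt2 (adjusted p = 0.432 and 0.643 from edgeR), while the median of all genes moved from 0.0064 to 0.50, so that both stayed below the median gene but were not below db/+. On that scale 6 of the 9 genes were called in db/db against db/+, all higher, in place of 1 higher and 2 lower, and among all genes 5971 were called higher and 801 lower, in place of 2662 and 2407.

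The Akt1 call in db/db was also lost without db/db mouse 1, db/+ mouse 1 or db/+ mouse 2 and without the filter on low counts, and the Akt2 call without db/db mouse 2 or any one of the db/+ mice. Counts of the pair could be affected by shared sequence to a small extent, since their coding sequences share a run longer than the 31 bases that kallisto uses. It is shown because it was the longest identical run between any members compared, at coding bases 1087 to 1118 of Akt1 and 1090 to 1121 of Akt2.
Akt1 and Akt2: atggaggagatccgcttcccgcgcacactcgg

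Over all annotated transcripts, Akt1 shared 3 of its 4143 stretches of 31 bases with Akt2. Akt2 shared 964 of its 7255 stretches, 13.3%, with its pseudogene Akt2-ps, which had between 0 and 7 counts per library. The longest identical coding run was 19 bases between Insr and Igf1r and 21 bases between Irs1 and Irs2. The ratio of Akt1 to Akt2 per length, which is free of scaling, was 2.55, 2.18 and 2.27 in db/+, 2.05 and 2.82 in db/db, and 2.60 and 2.17 in KO_db/db, and the groups overlapped.

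**Figure D2:**
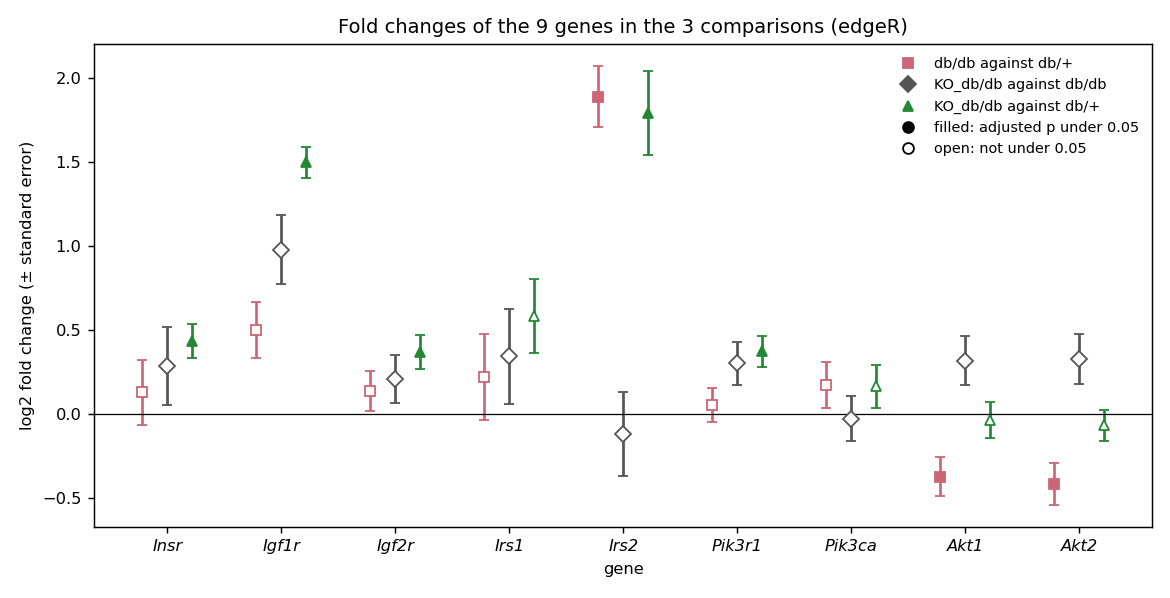
Log2 fold change (y axis) with its standard error (bars) of the 9 genes (x axis) in the 3 comparisons, from edgeR; filled symbols have an adjusted p under 0.05. The fold changes of Irs2 against db/+ are 1.89 in db/db and 1.79 in KO_db/db, and Igf1r stands at 0.50, 0.98 and 1.498 in the comparisons drawn from left to right.

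In the lean β-cells the order of levels per kilobase of principal transcript was Akt1 (48.0 ± 3.25 CPM per kb, SD, n = 3), Akt2 (20.6 ± 1.33), Igf2r (8.68 ± 0.677), Pik3r1 (6.15 ± 0.314), Insr (4.08 ± 0.290), Irs2 (2.80 ± 0.630), Pik3ca (2.79 ± 0.354), Igf1r (2.38 ± 0.113) and Irs1 (0.466 ± 0.0728). The libraries of Irs2 overlapped those of Pik3ca and of Igf1r in this order, and no other neighbours overlapped. In db/db, Irs2 stood in place 3, at 10.5 ± 0.192 CPM per kb (SD, n = 2), and the libraries of Igf1r overlapped those of both Insr and Pik3ca. In KO_db/db, Igf1r, at 6.68 ± 0.277 CPM per kb (SD, n = 2), passed Insr, at 5.48 ± 0.233, and Irs2 overlapped both Igf2r and Pik3r1. With the merged length of all exons in place of the principal transcript, Irs2 was in place 2 in db/db instead of place 3, ahead of Akt2. By that length Pik3ca also moved in db/db, from place 8 to place 6, ahead of Insr and Igf1r. In db/+ Irs2 then stood in place 5 and Insr in place 6. Akt1 was first and Irs1 last in each group by either length.

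**Figure D3:**
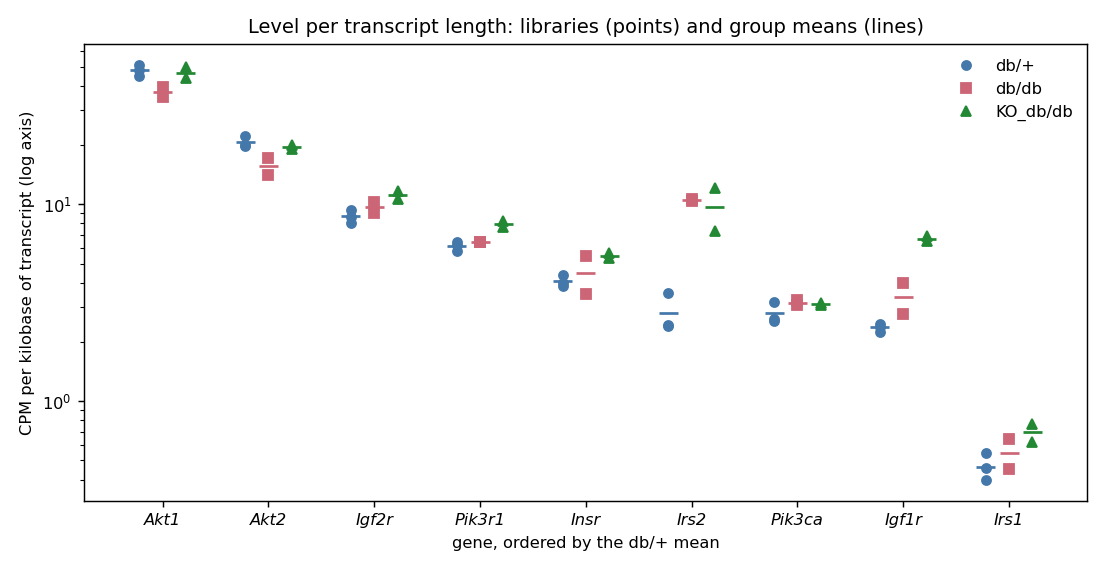
Level in CPM per kilobase of principal transcript (log axis) of the 9 genes, ordered by their mean in db/+, with libraries as points and group means as lines. Irs2 is at 2.80 CPM per kb in db/+ and 10.5 in db/db on average, and Igf1r at 2.38 in db/+ and 6.68 in KO_db/db.

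Genes with the pattern most like each member over the 7 libraries were found by Pearson correlation of log2 CPM among 7653 genes with a mean of at least 10 CPM. For Irs2 they included Rabl6 and Ankrd17 (r = 0.994 and 0.993), for Igf1r Cplx2, Myh10 and Sptbn4 (r = 0.993, 0.992 and 0.991), and for Insr Slc25a23, Ass1 and Pwwp3a (r = 0.995, 0.994 and 0.989). For Pik3r1 they included Cyb5r3 and Eif4ebp2 (r = 0.984 and 0.982). The first was Cirbp for Igf2r, Pacs1 for Irs1, Tmem245 for Pik3ca, Etfa for Akt1 and Mlph for Akt2, with r between 0.944 and 0.987. With 7 points that share library and group, and the highest of many candidates taken, such values are a description only.

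The rest of the relay was read from 65 further genes in 8 lists. Of 58 tested in db/db against db/+, 10 rose and 11 fell, or 36.2%, near the 37.8% of all genes. Against db/+, 14 of 57 rose in KO_db/db and 10 fell, or 42.1%, near the 38.4% of all genes. Between KO_db/db and db/db, 0 of 57 were called by edgeR, with 10 at an unadjusted p under 0.05, or 17.5% beside 20.9% of all genes. DESeq2 called 7 of 63 there, or 11.1% beside 6.99% of all genes. Leaving out db/+ mouse 2 left 13 calls in db/db against db/+, and leaving out KO_db/db mouse 1 left 14 in KO_db/db against db/+. On the total count scale db/db against db/+ gave 27 calls upward and 4 downward, or 46.6% and 6.90% beside 44.5% and 5.97% of all genes. In KO_db/db against db/+ that scale gave 17 higher and 2 lower, or 29.8% and 3.51%, beside 2971 and 650 of all genes, or 22.5% and 4.91%.

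Of the ligands, both insulin genes fell in db/db against db/+ and Igf2 was not called. Ins1 was at 111217, 103816 and 124218 CPM in db/+, 43605 and 18760 CPM in db/db, and 73605 and 52879 CPM in KO_db/db, and its fold changes were -1.87 in db/db (SE 0.40, adjusted p = 0.0117 from edgeR) and -0.83 in KO_db/db (SE 0.23, adjusted p = 0.0271 from edgeR) relative to db/+. Ins2 fell by 0.83 on the log2 scale in db/db (SE 0.26, adjusted p = 0.0429 from edgeR), and was -0.63 in KO_db/db against db/+ (SE 0.21, adjusted p = 0.0518 from edgeR). Igf1 was too low to be tested, at 3.61 and 0.267 CPM in KO_db/db and at most 0.104 CPM in the others.

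IGF-binding proteins hold IGFs outside the cell. Of 4 tested, 1 rose and 2 fell in db/db against db/+, or 75% beside the 37.8% of all genes called. Igfbp5 was at 12.0, 16.7 and 7.52 CPM in db/+, 0.705 and 0.645 CPM in db/db, and 1.35 and 1.48 CPM in KO_db/db, with log2 fold changes of -4.16 and -3.07 against db/+ (adjusted p = 0.00101 and 0.00204 from edgeR). Igfbp7, secreted by many cell types, was at 48.9 and 62.8 CPM in db/db and at 68.7 to 83.2 CPM in db/+ (log2 fold change -0.49, adjusted p = 0.0418 from edgeR). Igfbp3 was called as higher in both db/db and KO_db/db, but from low levels, at 1.35 and 2.84 CPM in db/db, 0.698 and 0.534 CPM in KO_db/db, and at most 0.0819 CPM in db/+, under the 3 counts taken as the detection floor.

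Among the other receptors and adaptors, Insrr, which encodes a receptor of the insulin receptor family that senses alkaline pH, was at 202, 200 and 223 CPM in db/+, 133 and 121 CPM in db/db, and 364 and 275 CPM in KO_db/db. It lay lowest in db/db and highest in KO_db/db with no overlap, at -0.73 in db/db against db/+ (SE 0.11, adjusted p = 0.00388 from edgeR), 0.62 in KO_db/db against db/+ (SE 0.14, adjusted p = 0.0162 from edgeR) and 1.33 in KO_db/db against db/db (SE 0.19, adjusted p = 0.0835 from edgeR). The adaptor Shc1 fell in db/db by a log2 fold change of 0.91 and Sos1, which activates RAS, rose by 0.75 (adjusted p = 0.00262 and 0.00400 from edgeR), and both were called in the same direction in KO_db/db against db/+. Sh2b2 was called in db/db at 2.14 and 0.574 CPM, with 0, 0 and 0.139 CPM in db/+. In all, 4 of 7 tested genes of this list were called in db/db, 2 in each direction, or 57.1% beside the 37.8% of all genes.

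Of the other PI3K subunits, 1 of 4 was called in each comparison against db/+. This was 25%, beside 37.8% of all genes in db/db and 38.4% in KO_db/db. In db/db Pik3r3 fell by a log2 fold change of 0.65 (adjusted p = 0.0153 from edgeR), and Pik3r2 was higher in KO_db/db by 0.39 (adjusted p = 0.0405 from edgeR). Among the kinases that activate AKT and their partners, Mlst8 and Pdpk1 fell and Mtor rose in KO_db/db against db/+, with fold changes of -0.998, -0.38 and 0.69 (adjusted p = 0.00303, 0.0261 and 0.00394 from edgeR). In db/db against db/+ the values of Mlst8 and Pdpk1 were -0.62 and -0.30 (adjusted p = 0.0815 and 0.0817 from edgeR).

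Of 11 inhibitors tested, 3 were called in db/db against db/+, all higher, or 27.3% beside the 37.8% of all genes called and the 19.9% called higher. Pik3ip1, which restrains PI3K, rose by 1.36, Socs3, which blocks receptor and IRS signalling, by 1.02, and Ptpn1, the phosphatase that dephosphorylates the insulin receptor, by 0.63 (adjusted p = 0.0416, 0.0317 and 0.00469 from edgeR). Ptpn1 was at 52.2, 54.4 and 51.3 CPM in db/+, 77.4 and 87.0 CPM in db/db, and 96.7 and 89.4 CPM in KO_db/db, with groups that did not overlap. Of the same 11, 4 rose in KO_db/db against db/+, or 36.4% beside the 38.4% of all genes called and the 20.5% called higher. Among them were Ptpn1 (0.83, adjusted p = 0.00120 from edgeR), Pik3ip1 (1.48, adjusted p = 0.0110 from edgeR) and Inppl1, a lipid phosphatase (0.47, adjusted p = 0.0397 from edgeR).

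Of 14 AKT substrates and mTORC1 genes, 4 rose and 1 fell in db/db against db/+, or 35.7% beside the 37.8% of all genes called. In KO_db/db against db/+, 5 rose and 2 fell, or 50% beside the 38.4% of all genes. Foxo3 and Foxo1, the transcription factors that AKT keeps out of the nucleus, rose in db/db by 1.20 and 0.65 and in KO_db/db by 1.47 and 0.75 (adjusted p = 0.0102, 0.00946, 0.00253 and 0.00962 from edgeR, in that order). Gsk3b, the glycogen synthase kinase inhibited by AKT, rose by 0.76 in db/db and 0.52 in KO_db/db (adjusted p = 0.00437 and 0.00993 from edgeR). Rps6kb1, the S6 kinase below mTORC1, rose by 0.74 in db/db (adjusted p = 0.0119 from edgeR) and stood at 0.31 in KO_db/db (adjusted p = 0.0792 from edgeR). In the RAS-ERK branch, the kinase gene Map2k1 fell by 0.63 in db/db (adjusted p = 0.00716 from edgeR).

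Of the 18 calls named for these further genes in db/db against db/+, 12 held with each library left out. Those of Ins2, Igfbp7, Sh2b2, Pik3ip1 and Socs3 were lost without db/+ mouse 1, without db/+ mouse 2 and without at least 1 db/db mouse, and that of Pik3r3 without db/+ mouse 2. On the total count scale, Igfbp7 came to -0.00016, and Ins1, Igfbp5 and Shc1 were the named falls that were still called. Of the 16 calls named in KO_db/db, 7 held with each library left out, namely Igfbp5, Mlst8, Mtor, Pik3ip1, Ptpn1, Foxo3 and Foxo1. The calls of Shc1 and Pik3r2 were lost without any one library, those of Insrr, Pdpk1 and Inppl1 without KO_db/db mouse 1, db/+ mouse 1 or db/+ mouse 2, and that of Ins1 without KO_db/db mouse 2, db/+ mouse 1 or db/+ mouse 2. Without KO_db/db mouse 1 Gsk3b was no longer called, without KO_db/db mouse 2 Sos1 was not, and without either Igfbp3 was not.

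**Figure D4:**
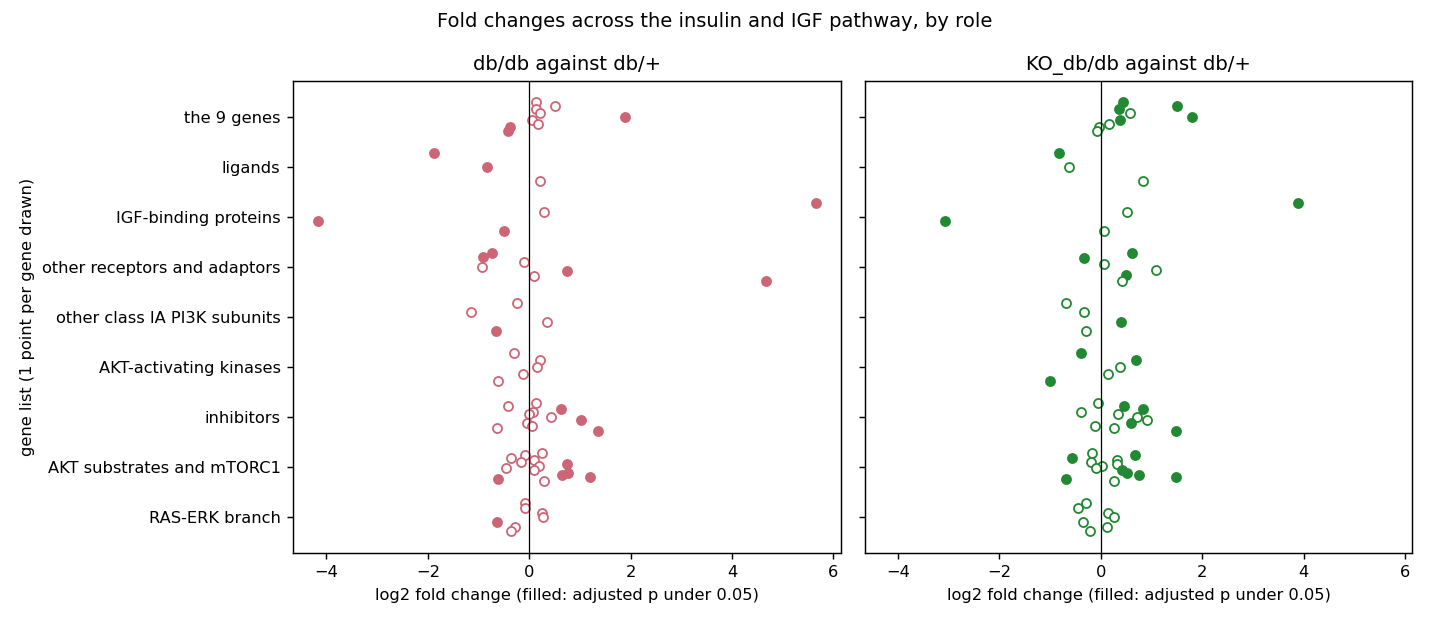
Log2 fold change (x axis) of each tested gene of the relay, 1 point per gene, in rows for the 9 genes and 8 further lists (3 genes are not drawn), in db/db (left) and KO_db/db (right) against db/+; filled points have an adjusted p under 0.05 in edgeR. Filled points lie on both sides of 0 in both comparisons for the IGF-binding proteins, the other receptors and adaptors and the AKT substrates.

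**Figure D5:**
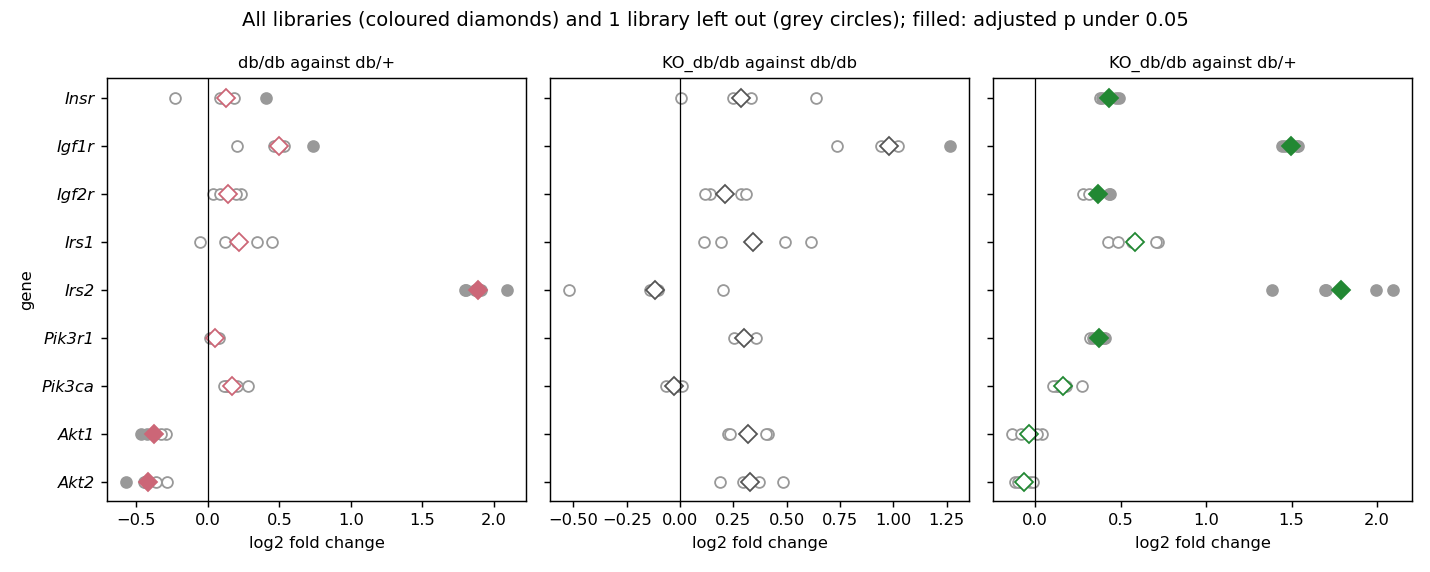
Log2 fold change (x axis) of the 9 genes (rows) with all libraries of the comparison (coloured diamonds) and with each library left out in turn (grey circles); filled symbols have an adjusted p under 0.05 in edgeR. Irs2 stays filled in both comparisons against db/+ and Igf1r in KO_db/db against db/+, whereas Insr in db/db against db/+ ranges from -0.23 to 0.41.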

How the data were processed

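Samples were grouped by the genotype and mouse named in their labels. The authors made poly-A libraries, read them from both ends and deposited, for each gene, the estimated count of kallisto 0.44.0 on GRCm38 as a whole number with no normalization. Reads were converted with bcl2fastq 2.19, per the submitters' processing notes. The annotation release is not given in the sources used here. The counts were analysed with edgeR 4.0.16 under R 4.3.3. A fit held only the libraries of the groups it compared, after filterByExpr (minimum count 10) and TMM scaling, with the quasi-likelihood test and Benjamini-Hochberg adjustment at 0.05. The SE was taken as the absolute fold change over the root of F. Correlations used a prior count of 2. Total counts ran from 27496645 to 35852785 (median 31355436), where 3 counts, taken as the floor, come to 0.0717 to 0.123 CPM. Such floors cover counting error only. Replicates differed by more than sampling noise.

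The 9 genes, the lists and the tests were chosen with earlier results of these data known. All 9 genes were named. From each list at most 4 genes called in any comparison were named, in order of their absolute fold change in db/db against db/+; some genes that these rules pick are not reported here. Genes most like a member excluded predicted genes and pseudogenes. Alternatives were RLE scaling, DESeq2 1.42.0 (the tool of the study), no filter, the mouse number as a block, one fit of all 7 libraries, removal of acinar and Reg genes, an adjusted p under 0.01, each library left out in turn and, added after seeing the data, total count scaling. Where 1 library was left in a group, it was assumed to vary like the others. Positions and lengths are from GENCODE M21 (34222 of 35013 symbols matched), and promoters from RefSeq on GRCm38.p6.

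Counts of near-identical or overlapping genes are uncertain, since kallisto divides reads among the transcripts they fit and no strand setting is given in the sources used here. Markers covered β-cells, other endocrine cells (alpha, delta, PP), exocrine cells (acinar, ductal), endothelial cells, stellate cells with fibroblasts, macrophages, lymphocytes and the Reg family. Ductal markers summed to between 179 and 418 CPM, PP markers to between 151 and 910 CPM, and the Reg family to 339 and 3040 CPM in KO_db/db against at most 8.96 CPM in the others.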

Additional observations from a re-analysis of the deposited data

How the results depend on the processing

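Of the fold changes of the 9 genes under all alternatives, 291 kept their direction and their side of the threshold, 26 lost the call, 14 gained it and 11 changed sign. With the mouse number as a replicate block, 1 of the 9 genes was called in db/db and 3 in KO_db/db, both against db/+, and 0 in KO_db/db over db/db. The numbers were taken to name mice only. Deviations of same-numbered libraries from their group mean correlated between -0.102 and 0.0759. In a group of 2 the deviations mirror each other, so these values cannot show that no pairing existed. With an adjusted p under 0.01 the 9 genes gave 1 call in db/db and 2 in KO_db/db against db/+, and the 65 further genes gave 10 and 11. In KO_db/db against db/db, 1 of the 9 genes was called by DESeq2, 1 without the filter and 1 with all 7 libraries in one fit, in each case Igf1r, and 7, 6 and 4 of the further genes were called, and 3 with total counts. Over all genes, 43 calls became 1371 with DESeq2, 1570 without the filter, 818 with all 7 libraries, 22 with the block, 1220 with total counts and 0 to 225 with a library left out. The 5069 calls of db/db against db/+ became 2479 at an adjusted p under 0.01, 3331 without db/+ mouse 1 and 3368 without db/+ mouse 2, and the 5081 of KO_db/db became 2394 at that threshold and 3060 without KO_db/db mouse 1.

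Total counts gave 6 calls among the 9 genes in db/db against db/+ and changed the sign of Akt1 and Akt2 there to 0.12 and 0.073, of both for KO_db/db over db/+ to 0.17 and 0.15, and of Igf2r for KO_db/db over db/db to -0.037. The median of all genes then stood at 0.497, 0.21 and -0.28 in these comparisons. RLE scaling and removal of the acinar and Reg genes changed no call among the 9 genes.

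With each library left out in turn, calls among the 9 genes ranged from 1 to 4 in db/db against db/+, 0 to 1 in KO_db/db against db/db and 2 to 5 in KO_db/db against db/+, and those among the further genes from 13 to 20, 0 to 1 and 14 to 24. Fold changes that changed sign ranged from -0.23 to 0.41 for Insr and -0.053 to 0.45 for Irs1 in db/db against db/+, from -0.52 to 0.20 for Irs2 and -0.064 to 0.0092 for Pik3ca in KO_db/db against db/db, and from -0.13 to 0.040 for Akt1 in KO_db/db against db/+. The cause of these changes was not tested. With 2 or 3 mice a group, the calls of Insr, Igf2r and Pik3r1 in KO_db/db against db/+ depended on single libraries. Their fold changes there stayed positive with each library left out, at 0.376 to 0.490, 0.282 to 0.438 and 0.322 to 0.411, in that order.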

Other observations

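The ratio of Pik3r1 to Pik3ca per length, the regulatory over the catalytic subunit, was 2.67 and 2.43 in KO_db/db, 1.98 and 2.08 in db/db, and 2.38, 2.00 and 2.27 in db/+, so that KO_db/db lay above all other libraries and the other groups overlapped. The ratio of Insrr to Insr per length was 13.4 and 9.56 in KO_db/db, 7.40 and 4.34 in db/db, and 9.91, 8.91 and 11.4 in db/+, and the db/db libraries lay lowest. Per kilobase of principal transcript, the mean of Insrr with its SD was 40.9 ± 2.54 CPM over the 3 db/+ libraries, 24.8 ± 1.71 over the 2 db/db and 62.6 ± 12.3 over the 2 KO_db/db libraries, above Insr and Igf1r in each library. These ratios were chosen after the levels had been seen and were not tested.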
